A study of Mus musculus with 4 samples.

Results

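The kinesin motor genes of mouse oocytes before and after maturation, with and without an HDAC6 inhibitor, were examined. They were taken by symbol as all entries named *Kif* or *Kifc* followed by a digit, which gave 43 of the 21957 genes in the table. *Kif1bp* encodes a binding protein of kinesins and no motor, so 42 motor genes remained. They were sorted by role into 15 mitotic motors, 17 transport motors, 6 motors of cilia, flagella or Hedgehog signalling, and 4 with no class. Kinesins are motor proteins that move along microtubules by hydrolysing ATP. Mitotic kinesins build the spindle, move chromosomes and act in cytokinesis, whereas transport kinesins carry organelles, vesicles and RNA through the cytoplasm. In the oocyte, which has no centrioles, spindle assembly and polar body extrusion depend on several of these motors.

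The oocytes came from B6D2F1 (C57BL/6 x DBA) female mice of 6 to 8 weeks that had been primed with gonadotropin, and cumulus cells had been removed with hyaluronidase. GV oocytes, which are arrested in prophase with an intact germinal vesicle, were collected before culture. MII oocytes were cultured for 12 h without drug and taken if they had extruded a polar body, while TubA-10 and TubA-20 oocytes were cultured for 12 h with 10 or 20 μM tubastatin A (TubA), a small molecule made to inhibit the tubulin deacetylase HDAC6. No selection by polar body is described for the TubA oocytes, and the title of the MII sample calls it an embryo. The sample titles carry these doses, although another label of the same samples, the treatment field, has 20 μM where the title says 10 and 11 μM where it says 20. TubA was dissolved in DMSO, and whether the MII oocytes received DMSO is not given in the sources used here. The paper reports that passage from meiosis I to meiosis II was impaired in TubA-treated oocytes. For the higher dose it describes a stop before MII. The TubA and MII libraries may therefore differ in meiotic stage as well as in drug. The part of stage in the differences between them was not tested.

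There was 1 library from a pool of 100 oocytes per condition. Differences therefore have no replicate check, and no p-value is given. The authors deposited FPKM, which scales fragments by transcript length and by the mapped total of the library, so levels can be compared between genes per length. Changes are log2 ratios of FPKM + 1, which understate the change of low genes, and a gene was counted as changed when it passed 2-fold. Because poly(A) RNA was selected, a change in the amount of an mRNA and a change in its poly(A) tail cannot be told apart. In pooled oocytes, fewer cells carrying an mRNA and less of it per cell cannot be told apart either. The 10 oocyte markers examined were between 12.4 and 3822 FPKM in the 4 libraries. From MII to TubA-20, *Zp2* (778 to 293 FPKM), *Zp3* (2256 to 973), *Padi6* (776 to 350) and *Figla* (41.9 to 12.4) were lower. *Zp1*, *Bmp15* and *Nlrp5* were lower too, while *Gdf9* (2928 to 3822), *Mos* (726 to 1041) and *Ooep* (460 to 479) were higher. TubA-20 had 14434 genes above 0, against 15281 in GV, 15358 in MII and 15440 in TubA-10. Of 12 cumulus and granulosa markers, 1 to 3 per library were above 1 FPKM, and their sum was 16.6 FPKM in GV, against 10.7 (MII), 8.29 (TubA-10) and 14.3 (TubA-20). *Inha* was at 7.50 FPKM before culture and 0.239 to 0.314 after it, while *Cyp19a1*, the marker with most of the sum in the cultured libraries, was at 6.14 FPKM before culture and 7.42 to 10.3 after it. *Tnfaip6* (1.57 FPKM) and *Ptx3* (1.19) were above 1 FPKM in TubA-20 alone. *Foxl2* was at 0 in all 4 libraries, and the part of these cells in the kinesin values was not tested. Blood markers summed to at most 0.0347 FPKM.

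A mean of at least 1 FPKM over the 4 libraries was reached by 26 of the 42 motor genes. These were 13 mitotic, 10 transport and 3 ciliary motors. From the lowest values of genes with a single transcript, the 26 genes and *Kif1bp* were estimated to rest on 62 or more fragments in each library. The other 16 motor genes did not exceed 0.987 FPKM in any library. *Kif12* and *Kif2b* were listed at 0 in all 4, and 6 more were listed at 0 in some. Among them were 7 transport motors: the neuronal *Kif1a* and *Kif5a*, *Kif1c*, *Kif3c*, *Kif21a*, *Kif21b* and *Kifc2*. All 4 motors without a class were in this set, as were *Kif6*, *Kif7* and *Kif19a*.

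**Figure D1:**
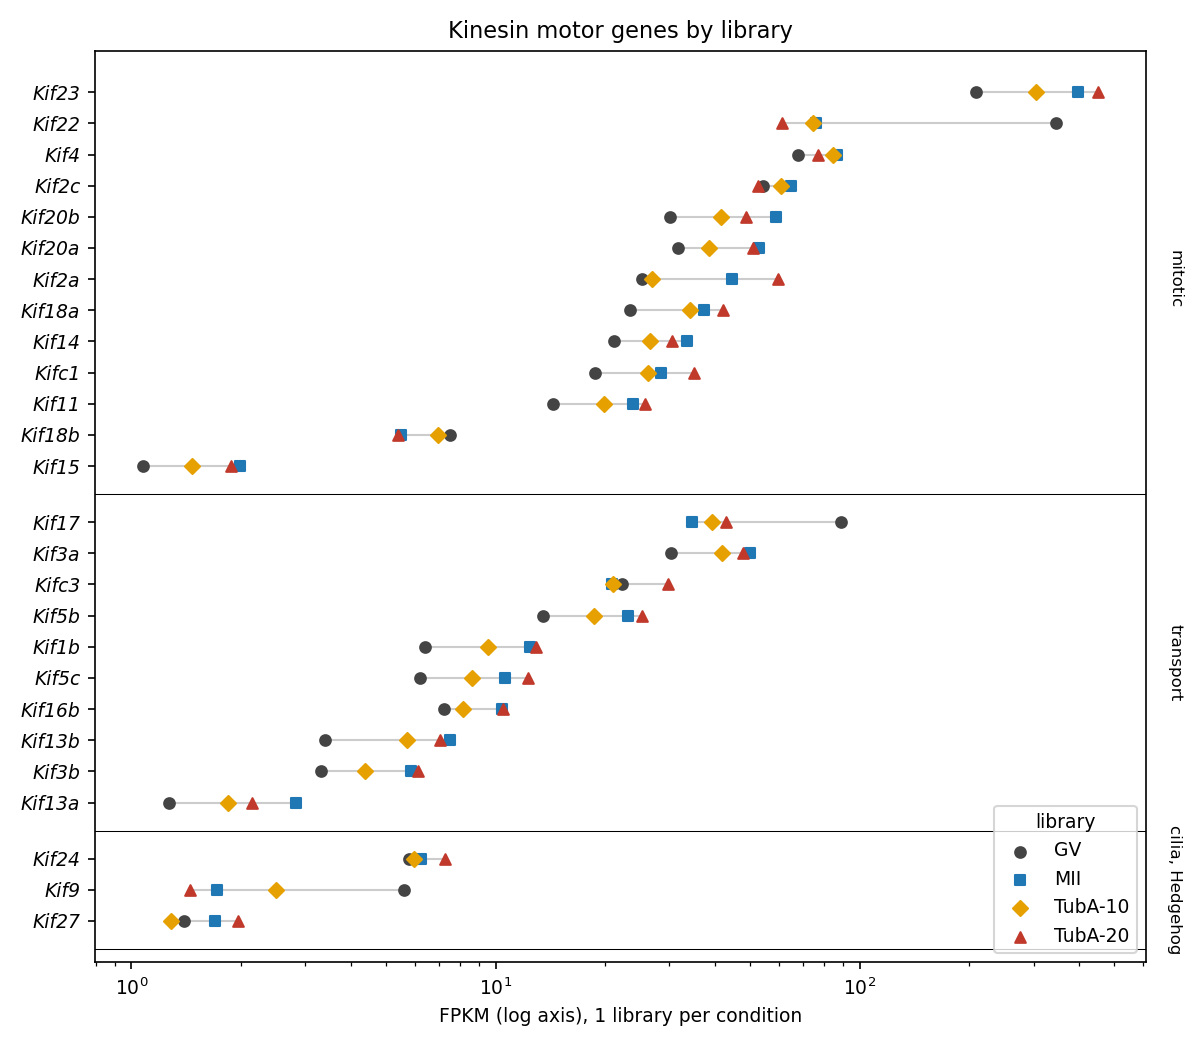
FPKM of the 26 motor genes with a mean of at least 1 FPKM, on a log axis, with 1 point per library and the genes ordered by mean level within each class. GV is the lowest library for 19 of the 26 genes and the highest for 4, with the widest gaps for *Kif22*, *Kif17* and *Kif9*.

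The most abundant motor mRNA differed between GV and the cultured oocytes. *Kif22* (Kid) encodes a chromokinesin that pushes chromosome arms towards the spindle equator, and *Kif23* (MKLP1) encodes the motor of centralspindlin, which builds the midzone in cytokinesis. *Kif22* (chromosome 7, 127027729 to 127042471 on GRCm38) was at 347 FPKM in GV oocytes and 75.6 in MII, with 74.3 under TubA-10 and 61.3 under TubA-20. It was high in GV alone, and the 3 cultured libraries lay close together. *Kif23* (chromosome 9, 61915905 to 61946774) was at 209 FPKM in GV, against 398 (MII), 305 (TubA-10) and 452 (TubA-20). It was lowest in GV, and TubA-10 lay between GV and MII.

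Relative to GV, *Kif22* had log2 changes of −2.18 (MII), −2.21 (TubA-10) and −2.48 (TubA-20). For *Kif23* they were 0.92, 0.54 and 1.11, and the last became 0.88 under median-ratio scaling, which centres the raw FPKM ratios of the 9193 genes at 1 FPKM or more in all 4 libraries. The ratio of *Kif22* to *Kif23* within a library does not depend on how libraries are scaled. It was 1.66 before culture and 0.190 in MII, with 0.244 under TubA-10 and 0.136 under TubA-20. *Kif22* made up 33.0% of the summed FPKM of the 42 motor genes in GV and 5.32% in TubA-20, while the share of *Kif23* went from 19.9% to 39.2%.

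The 42 motors together reached 1050 FPKM before culture, 1103 in MII, 918 under TubA-10 and 1153 under TubA-20, so the totals differed less than their make-up. Without *Kif22* and *Kif23* the other 40 motors summed to 494 FPKM in GV oocytes and 630 in MII, with 539 under TubA-10 and 640 under TubA-20. The 17 transport motors held 184 FPKM of the GV total and 180 of the MII total, with 161 under TubA-10 and 198 under TubA-20. Of these sums *Kif17* held 88.9 FPKM in GV and 34.6 in MII, with 39.3 under TubA-10 and 42.8 under TubA-20. Of the 10 transport motors with a mean of at least 1 FPKM, 8 were higher in MII than in GV and 2 lower.

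**Figure D2:**
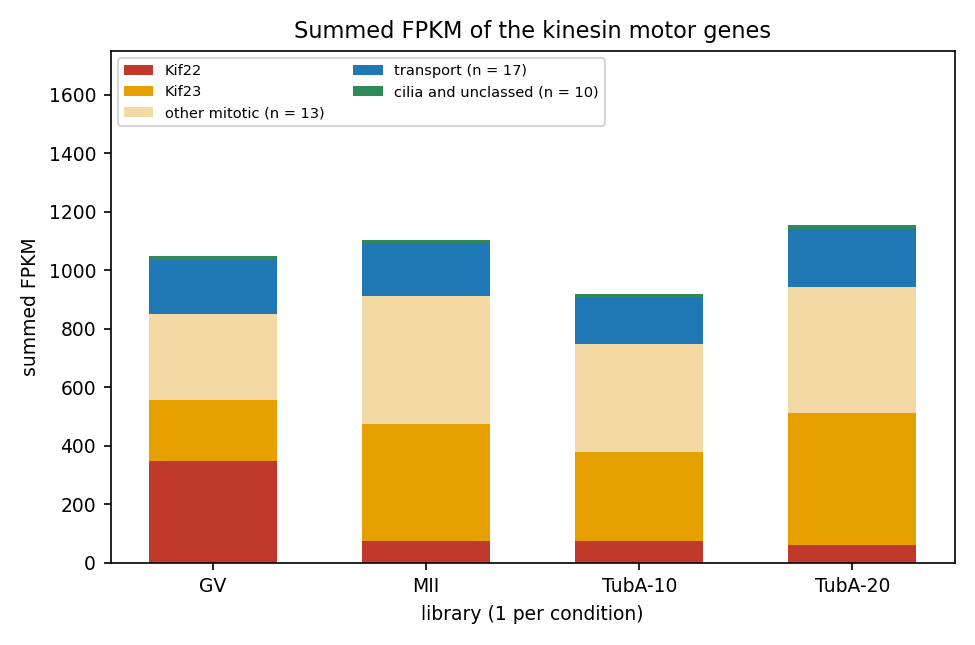
Summed FPKM of the 42 motor genes in each library (bars from 0, 1 library per condition), split into *Kif22*, *Kif23*, the other 13 mitotic, the 17 transport and the 10 remaining motors. *Kif22* shrinks from 347 FPKM in GV to between 61.3 and 75.6 in the cultured libraries, while *Kif23* grows from 209 to between 305 and 452.

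Maturation without drug was examined by setting MII against GV. Of the 26 motors, 21 were higher in MII and 5 lower, that is 80.8% higher, against 53% of the 10199 genes with a mean of at least 1 FPKM. No motor was higher past 2-fold on this scale, where 6.5% of all genes were. However, 2 passed with a pseudocount of 0.1, 5 with equal *Gapdh* and 3 when FPKM sums were made equal. Those settings move all genes too, and no share of all genes is given under them. The counts of 2, 5 and 3 can therefore not be set beside the 6.5%. *Kif13a* and *Kif13b* had raw FPKM ratios of 2.24 and 2.2 between MII and GV. Lower past 2-fold were *Kif22*, *Kif17* and *Kif9*, where 17.2% of all genes were. The median log2 change was 0.65 for the mitotic and 0.70 for the transport motors, beside 0.07 for all genes. The medians of both classes differed by 0.05, and they stayed positive under the 4 scalings of the libraries that were tried, which put the median of all genes between −0.05 and 0.27. Without the filter on low values the transport median was 0.20, and the mitotic median exceeded it by 0.38. *Kif24* turned to lower with median-ratio scaling, and *Kifc3* turned to higher with equal FPKM sums or equal *Gapdh*.

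Both TubA libraries were compared with GV in the same way. In TubA-20, 21 motors were higher than in GV and 5 lower, where 53.5% of all genes were higher. *Kif2a* and *Kif23* were higher past 2-fold, beside 16.2% of all genes, and *Kif22*, *Kif17* and *Kif9* were lower past 2-fold, beside 23.9%. With median-ratio scaling, which puts the all-gene median at −0.07 on this scale, *Kif2a* was just under 2-fold (0.98) and *Kif23* under it (0.88). The medians were 0.66 for the mitotic, 0.68 for the transport motors and 0.12 for all genes. In TubA-10, 20 motors were higher and 6 lower, where 56.5% of all genes were higher. None was higher past 2-fold, beside 1.53% of all genes, and *Kif22* and *Kif17* were lower past 2-fold, beside 11.5%. Its medians were 0.31 for the mitotic, 0.37 for the transport motors and 0.10 for all genes. Under the alternatives the mitotic median ranged from 0.16 to 0.57 and the transport median from 0.09 to 0.60. Under the 4 scalings 20 to 22 motors were higher in TubA-20, with *Kif4* or *Kif2c* turning. In TubA-10 these were 18 to 23, with *Kif24*, *Kif2a*, *Kif18b*, *Kif27* or *Kifc3* turning. MII, TubA-10 and TubA-20 share the same GV library here.

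**Figure D3:**
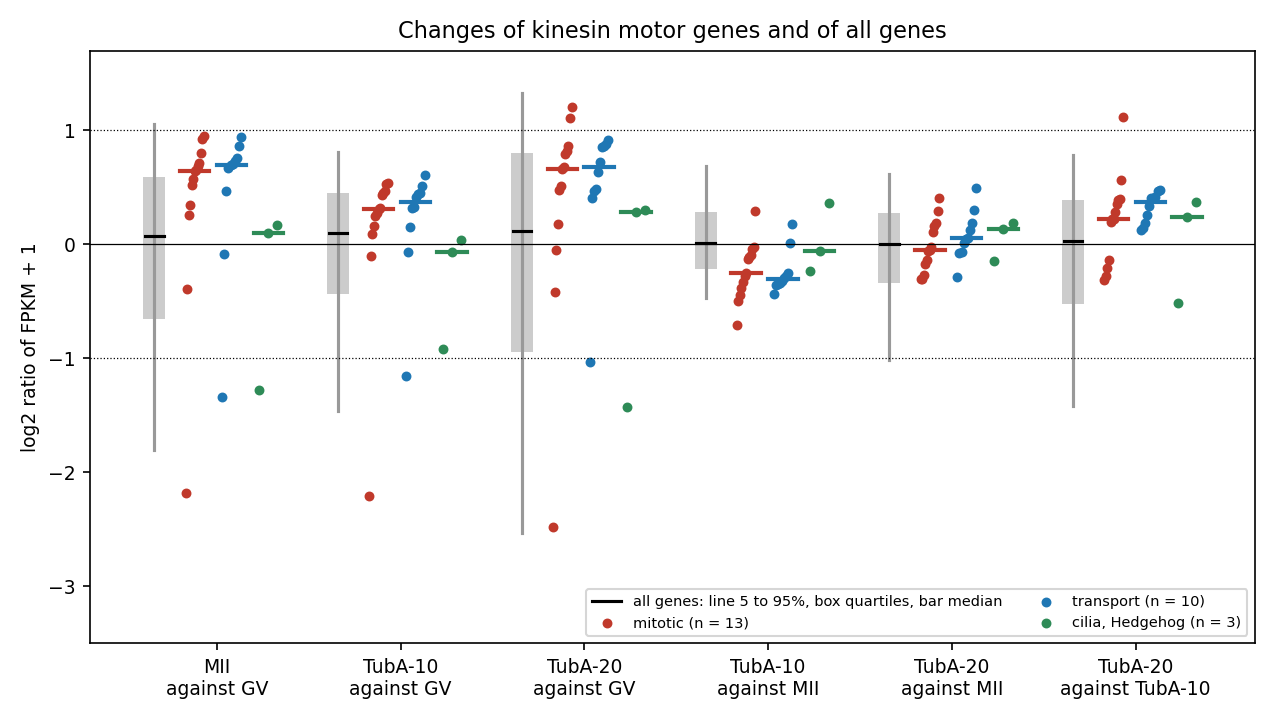
Log2 ratios of FPKM + 1 for the 13 mitotic, 10 transport and 3 ciliary motors (points, with class medians as bars) beside all genes with a mean of at least 1 FPKM (line from 5% to 95%, box of quartiles, median bar), with dotted lines at 2-fold. Against GV the mitotic and transport medians lie between 0.31 and 0.70 in every library, and *Kif22* lies lowest, between −2.48 and −2.18.

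The order of the libraries was the same for most motors. GV was below TubA-10, and TubA-10 below both MII and TubA-20, in 18 of the 26 motors (8 of 10 transport and 9 of 13 mitotic), against 32.2% of all genes. Under the 4 scalings 16 to 19 motors had this order, against 28.6% to 35.2% of all genes. The opposite order was seen for *Kif18b* and *Kif9*, against 26.3% of all genes. TubA-10 was below MII in 22 of the 26 motors, while 51.1% of all genes were above MII in that library. No motor passed 2-fold between them in either direction, where 1.05% of all genes were higher and 0.235% lower by as much. The medians of TubA-10 against MII were −0.25 for the mitotic and −0.31 for the transport motors, with 0.01 for all genes. Under the 4 scalings between 21 and 23 motors were lower.

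TubA-20 was also set against MII, although the oocytes of these libraries may not be matched in meiotic stage. Of the 26, 14 motors were higher in TubA-20 and 12 lower, where 50.4% of all genes were higher. None passed 2-fold in either direction, where 0.608% of all genes were higher and 5.22% lower by as much. The 26 changes lay between −0.30 and 0.50, and the middle 50% of all genes lay between −0.34 and 0.27. The medians were −0.05 for the mitotic and 0.05 for the transport motors. The number of motors higher ranged from 9 to 19 under the scalings, so no direction can be given for the class. The highest was *Kifc3* (0.50), a minus-end motor of the kinesin-14 family known from junctions and the Golgi. It was at 22.2 FPKM in GV, against 20.8 (MII), 21.1 (TubA-10) and 29.8 (TubA-20), so TubA-20 stood above 3 similar libraries.

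Between the doses, 21 of the 26 motors were higher in TubA-20 and 5 lower, where 51.6% of all genes were higher, and the median difference was 0.23 for the mitotic and 0.37 for the transport motors. With equal *Gapdh*, 19 were higher and 7 lower, *Kif17* and *Kif3a* turned, and the medians were 0.09 and 0.19. *Kif2a* separated the doses most. It encodes a kinesin-13, which does not walk but removes tubulin from microtubule ends and acts at spindle poles. *Kif2a* (chromosome 13, 106958996 to 107022126) was at 25.2 FPKM in GV oocytes and 44.6 in MII, with 26.9 under TubA-10 and 59.5 under TubA-20. TubA-10 was close to GV, and TubA-20 was the highest library. The log2 change was −0.71 for TubA-10 against MII, 0.41 for TubA-20 against MII and 1.12 for TubA-20 against TubA-10. It was the only motor past 2-fold between the doses, where 1.27% of all genes were higher and 11.8% lower by as much, and with equal *Gapdh* its change was 0.93. *Kif2c* (MCAK), the kinesin-13 of centromeres, was at 54.2 FPKM in GV, against 65.0 (MII), 60.8 (TubA-10) and 52.5 (TubA-20). The ratio of *Kif2a* to *Kif2c* was 0.465 (GV), 0.687 (MII), 0.441 (TubA-10) and 1.13 (TubA-20). *Kif2a* thus exceeded *Kif2c* under the higher dose alone.

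**Figure D4:**
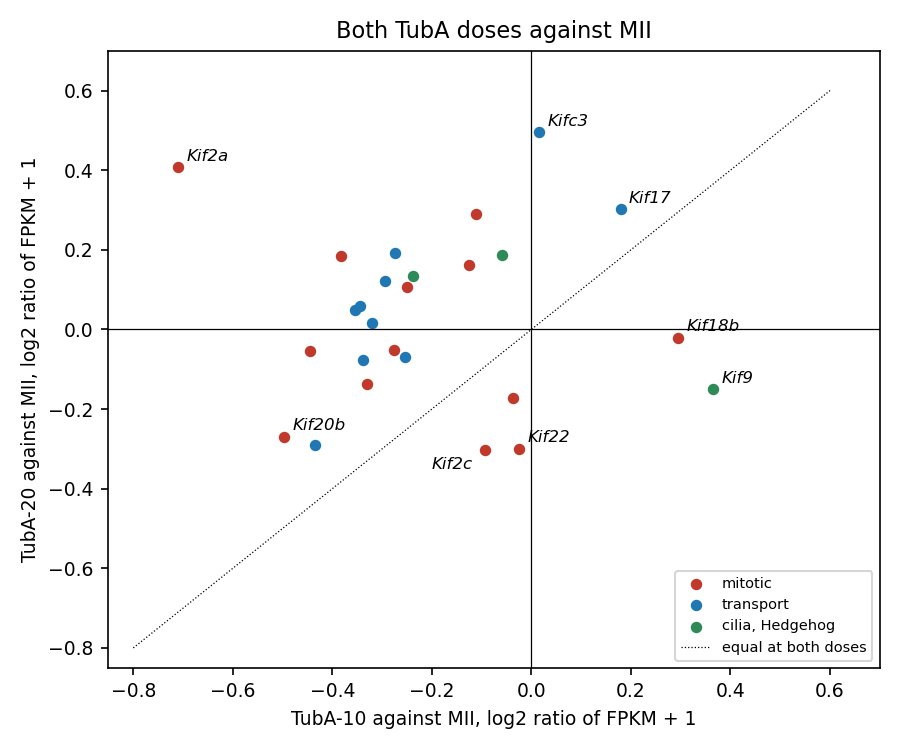
Log2 ratio of FPKM + 1 against MII for TubA-10 (horizontal) and TubA-20 (vertical), with 1 point for each of the 26 motors and a dotted line of equality. Both axes share the MII library. *Kif2a* lies farthest above the line (−0.71 and 0.41), and most motors lie left of 0 with TubA-20 values near 0.

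Among the other spindle motors, *Kif11* (Eg5), the motor that slides antiparallel microtubules apart to make the spindle bipolar, was at 14.4 FPKM in GV, against 23.8 (MII), 19.8 (TubA-10) and 25.7 (TubA-20). *Kifc1* (HSET), a minus-end motor that focuses spindle poles, was at 18.8, 28.5, 26.3 and 35.1 FPKM for GV, MII and the lower and higher dose. GV was lowest for both and TubA-20 highest, except that *Kif11* was lower in TubA-20 than in MII with equal FPKM sums (−0.03) or equal *Gapdh* (−0.05). *Kifc1* shared 23.7% of its 100-base stretches with *Kifc5b*, a near-identical copy that did not exceed 0.793 FPKM, so reads may have been split between them and the *Kifc1* values are uncertain. *Kif15*, which backs up *Kif11* in keeping the spindle bipolar, was at 1.07 FPKM in GV and 1.99 in MII, with 1.46 under TubA-10 and 1.88 under TubA-20. It was low in each library and lowest in GV.

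The paralogs *Kif18a* and *Kif18b* act at microtubule plus ends. *Kif18a*, which dampens chromosome oscillation at metaphase, was at 23.4 FPKM in GV oocytes and 37.5 in MII, with 34.3 under TubA-10 and 42.0 under TubA-20. Its relative *Kif18b*, which shortens astral microtubules, was at 7.52, 5.49, 6.96 and 5.40 FPKM. *Kif18a* was lowest in GV and *Kif18b* highest there. *Kif18a* was at 3.11 times the level of *Kif18b* in GV and at 6.83 times in MII, with 4.92 under TubA-10 and 7.78 under TubA-20. *Kif4*, the X-linked chromokinesin that limits the length of midzone microtubules with PRC1, stayed within 67.8 to 86.7 FPKM.

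The cytokinesis motors *Kif20a* (MKLP2) and *Kif20b* were, like *Kif23*, higher in MII than in GV. *Kif20a* was at 31.8 FPKM in GV, against 52.9 (MII), 38.6 (TubA-10) and 51.0 (TubA-20). *Kif20b* was at 30.1, 59.0, 41.5 and 48.8 FPKM. Both were lowest in GV, with TubA-10 next. *Kif14*, which acts in late cytokinesis with citron kinase, was at 21.1, 33.6, 26.5 and 30.5 FPKM. Between TubA-20 and MII the log2 differences of *Kif14*, *Kif20a*, *Kif20b* and *Kif23* lay between −0.27 and 0.18.

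*Kif17* was the transport motor farthest below GV. It encodes a homodimeric kinesin-2 that carries cargo in cilia and dendrites, and it was at 88.9 FPKM in GV oocytes and 34.6 in MII, with 39.3 under TubA-10 and 42.8 under TubA-20. GV stood above 3 similar libraries, with log2 changes against GV of −1.34, −1.16 and −1.04. Those of TubA-10 and TubA-20 did not pass 2-fold with equal *Gapdh* (−0.90 and −0.97), nor that of TubA-20 with equal upper quartiles (−0.89). *Kif17* was at 2.94 times the level of *Kif3a* in GV and at 0.690 times in MII.

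*Kif3a* and *Kif3b* encode the motor pair of the heterotrimeric kinesin-2. *Kif3a* was at 30.3 FPKM in GV, against 50.1 (MII), 41.8 (TubA-10) and 47.7 (TubA-20), and *Kif3b* at 3.31, 5.85, 4.39 and 6.13 FPKM. Although their products pair, the *Kif3a* level was 7.77 to 9.52 times that of *Kif3b* in the 4 libraries. The gene of their non-motor partner, *Kifap3*, did not exceed 0.909 FPKM.

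Conventional kinesin heavy chains carry mitochondria, vesicles and RNA granules, and *Kif5b* was the highest of their genes in each library. It was at 13.5 FPKM in GV oocytes and 23.1 in MII, with 18.7 under TubA-10 and 25.2 under TubA-20, and *Kif5c* was at 6.19, 10.6, 8.61 and 12.3 FPKM. The pair kept a ratio between 2.06 and 2.18. *Kif1b*, a carrier of mitochondria and synaptic vesicle precursors, was at 6.39, 12.5, 9.53 and 12.9 FPKM. *Kif13b*, a plus-end carrier of membrane proteins, was at 3.41, 7.48, 5.71 and 7.03 FPKM. *Kif16b*, a motor of early endosomes, was at 7.22, 10.4, 8.12 and 10.5 FPKM. *Kif13a*, an endosomal carrier, did not exceed 2.84 FPKM. All of these had GV lowest and TubA-10 next.

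Of the ciliary class, *Kif9*, a motor of the axoneme, was at 5.60 FPKM in GV, against 1.71 (MII), 2.5 (TubA-10) and 1.45 (TubA-20), with log2 changes against GV of −1.28, −0.92 and −1.43. GV was the highest library for it, and the TubA-10 change passed 2-fold with a pseudocount of 0.1 (−1.13) or with median-ratio scaling (−1.03). *Kif24*, a kinesin-13 of centrioles, was at 5.79 to 7.25 FPKM and *Kif27* at 1.29 to 1.96. *Kif1bp*, whose product binds kinesins without being one, was at 19.1 FPKM in GV oocytes and 12.9 in MII, with 13.7 under TubA-10 and 11.7 under TubA-20.

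Partners of kinesins were taken as a list of light chains, adaptors and spindle proteins. A level was found for 18 genes beside *Kif1bp*, and 14 had a mean of at least 1 FPKM. Of these, 9 were above GV in MII and 5 below (64.3% above, beside 53% of all genes), and in TubA-20 these numbers were 10 and 4 (71.4% above, beside 53.5%). In TubA-10, 8 were above GV and 6 below (57.1% above, beside 56.5%), with a median of 0.02 beside 0.10 for all genes. Against MII, 4 partners were higher in TubA-10 and 10 lower (28.6% higher, beside 51.1%), with a median of −0.32. Between the doses, 10 were higher in TubA-20 and 4 lower (71.4% higher, beside 51.6%), with a median of 0.23. Lower values in TubA-10 than in MII and TubA-20 were thus not particular to the motors. *Ect2*, whose product centralspindlin recruits in cytokinesis, was at 43.0 FPKM in GV, against 96.5 (MII), 76.7 (TubA-10) and 89.1 (TubA-20). *Cenpe*, a kinetochore kinesin outside the symbol rule, was at 52.4, 111, 77.3 and 92.3 FPKM. These were the 2 of 14 partners higher past 2-fold in MII, where 6.5% of all genes were, with log2 changes of 1.15 and 1.06, and with median-ratio scaling *Cenpe* no longer passed (0.92). *Mapk8ip3*, at 2.59 FPKM in GV and 5.81 in MII, had a raw FPKM ratio of 2.24 but a log2 change of 0.92 on this scale. In TubA-20 *Ect2* alone was higher past 2-fold (1.04), where 16.2% of all genes were, and with median-ratio scaling it did not pass (0.81). In TubA-10 *Ect2* was at 0.82 and passed with equal *Gapdh* (1.09). *Racgap1*, the partner of *Kif23* in centralspindlin, was at 38.9, 48.2, 39.6 and 63.5 FPKM, highest under TubA-20. The light chain gene *Klc3* was at 2.19, 1.13, 0.466 and 0.340 FPKM. It was the 1 partner of 14 past 2-fold below GV at both doses (−1.12 and −1.25). Of all genes, 11.5% (TubA-10) and 23.9% (TubA-20) were lower by as much. These are low levels, and *Klc3* was highest in GV. Its mean of 1.03 FPKM reached the minimum of 1 FPKM only through GV. A level below GV was thus partly fixed by the filter, and nothing is concluded from it. *Klc1* was the light chain gene with the highest level in each library, and *Kif5b* was at 0.631 times its level in GV, 0.917 in MII, 0.621 under TubA-10 and 0.950 under TubA-20.

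The transcripts of the motors were examined for length. The 26 principal transcripts in the GENCODE M21 annotation were 2115 to 8943 bases long. *Kif22* (2115 bases), *Kif9* (2713) and *Kif17* (3453), which were past 2-fold below GV in MII, were among the shorter ones, as were *Kifc1* (2357) and *Kif23* (3398), which were higher in MII. Across the 9105 genes with a 3′ UTR of at least 150 bases, length and the MII change had a Spearman coefficient of 0.36. Across the 23 motors among them, which leave out *Kif22*, *Kif17* and *Kif13b* for their shorter 3′ UTR, it was 0.38. The median transcript length was 4983 bases in these 23 motors and 3050 in the 9105 genes. The shares of all genes set beside the motors are not matched for length, and the part of length was not tested. For TubA-20 against GV the coefficients were 0.29 across all these genes and 0.24 across the motors. Both are given without a p-value, because genes share their libraries.

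**Figure D5:**
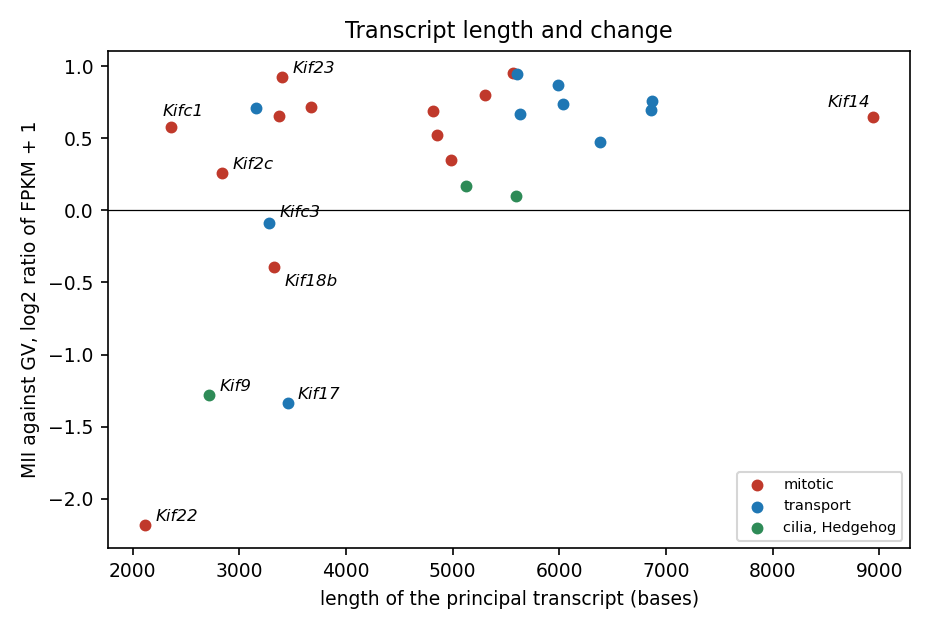
Length of the principal transcript in bases against the log2 ratio of FPKM + 1 in MII against GV, with 1 point for each of the 26 motors coloured by class. The 5 motors below 0 have transcripts of 2115 to 3453 bases, and the 21 above 0 have transcripts of 2357 to 8943 bases.

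Stored mRNAs of the oocyte are often polyadenylated during maturation through cytoplasmic polyadenylation elements, which lie near the 3′ end and bind CPEB. The last 150 bases of the principal transcripts were searched on the sense strand for TTTTAT or TTTTAAT, which cannot start at the same base. Of the 23 motors with a 3′ UTR of that length, 9 held a match (39.1%), against 26.5% of all 9105 genes. Among all genes the share was 39.2% of those higher past 2-fold in MII and 13.9% of those lower, and for TubA-20 against GV it was 39.2% of 1540 and 13% of 1922 genes. Among the 23 motors a match was held by 7 of the 20 above GV in TubA-20 by any amount and by 2 of the 3 below, *Kif9* and *Kif2c*, while *Kif23* and *Kif2a* held none. The log2 change of *Kif2c* was only −0.04, and it turned to higher with equal upper quartiles or equal *Gapdh*. *Kif22*, left out for its 3′ UTR of 62 bases, had 1 match in its last 150 bases. The stretches below, from GENCODE on GRCm38, show in capitals the element closest to the end in 3 higher motors and in *Kif9*, and the AATAAA polyadenylation signal in *Kif23* and *Kif2a*.
Kif11 (chr19:37421830-37421859, plus strand): aattttttaaattaaattaTTTTAATtttt
Kif18a (chr2:109341699-109341728, plus strand): aatgtgctaataTTTTATtacttggtatat
Kif20b (chr19:34975697-34975726, plus strand): cttgtatataaTTTTAATtcaataaatata
Kif9 (chr9:110525149-110525178, plus strand): gataaaattactTTTTATttcctgtctgaa
Kif23 (chr9:61917285-61917314, minus strand): caaaacaactgaAATAAAaaggcactaaga
Kif2a (chr13:106959000-106959029, minus strand): acgtcttcatacAATAAAttgttagaaagc
A match is a description of these letters and not a measured site, and the 3′ ends used in these oocytes may differ from the annotated ones.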

How the data were processed

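The authors deposited 1 table of FPKM values for 4 libraries, made with cufflinks and a strand-specific library type on mm10. The submitters' processing notes also name STAR 2.5.0 and Cuffdiff 2.2.1. Read counts are not used here. Of 21959 entries, 165 had no symbol by identifier and kept their identifier, and entries sharing a symbol were added up. No motor gene had more than 1 entry. Log2 ratios of FPKM + 1 were computed with no further scaling, and genes with a mean over the 4 libraries of at least 1 FPKM were counted. The fragments behind a value were estimated from the lowest values of genes with a single transcript, so they are rough. Every motor with such a mean could be named, the others by their range, together with a list of partner genes. The members, classes and lists were chosen with earlier results of these data known. Coordinates and transcripts came from GENCODE M21 (GRCm38, the same assembly as mm10). The log2 ratio and the 2-fold threshold were tested on simulated data, and the other steps were not. Alternatives were pseudocounts of 0.1 and 0.01, no minimum or 5 FPKM, 4 scalings, a 3-fold threshold, the highest entry per symbol and leaving out *Kifc1* and *Kifc5b*. Leaving out *Kif22* and the scalings of partner genes were added after seeing the data. Python 3.11.15, numpy 2.4.6, pandas 2.3.3 and matplotlib 3.10.9 were used.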

Additional observations from a re-analysis of the deposited data

Results flagged for a closer look

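*Kif2a* stood on opposite sides of MII at the 2 doses, by more than 0.37 each. That is the SD of TubA-10 against MII across the 7148 genes with a mean of at least 5 FPKM, and it was used for both doses although TubA-20 against MII spread wider. Its log2 change against MII was −0.71 at the lower and 0.41 at the higher dose, a difference of 1.12. The higher-dose value was 0.33 with median-ratio scaling, 0.25 with equal *Gapdh* and 0.27 when FPKM sums were made equal, which are under 0.37. With 1 library per dose this difference was not tested.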

How the results depend on the processing

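No paired analysis was possible because each condition had 1 library. Over the alternatives the mitotic and transport medians ranged from 0.51 to 0.87 and from 0.20 to 0.92 for MII against GV, and from 0.44 to 0.81 and from 0.41 to 0.82 for TubA-20 against GV. For TubA-20 against MII they ranged from −0.16 to 0.04 and from −0.09 to 0.14, so their sign depends on the setting. For TubA-10 against MII they ranged from −0.30 to −0.19 and from −0.36 to −0.10, and between the doses from 0.09 to 0.36 and from 0.14 to 0.49. Without a filter on low values the transport median of MII against GV was 0.20 and its difference from the mitotic median 0.38. The number of motors past 2-fold moved too, since many changes lie close to it. The alternatives can also change the share of all genes past the threshold. That share is not given under them, so the counts that follow describe the motors alone. Higher in MII than in GV were 2 with pseudocounts of 0.1 or 0.01, 3 with equal FPKM sums, 1 with equal upper quartiles and 5 with equal *Gapdh*, instead of 0. For TubA-20 above GV the count was 4 with either pseudocount, 6 with equal upper quartiles and 0 with median-ratio scaling, instead of 2. Lower in TubA-10 than in GV were 3 with either pseudocount or median-ratio scaling, and 1 with equal *Gapdh*, instead of 2. For TubA-20 below GV the count was 2 with equal upper quartiles or equal *Gapdh*, instead of 3. Between the doses *Kif2a* no longer passed with equal *Gapdh*, which left 0. At 3-fold, 1 motor remained lower than GV in each of MII, TubA-10 and TubA-20, 0 were above GV in TubA-20, and 0 between the doses. No change past 2-fold turned its direction. Motors with a mean below 1 FPKM rested on an estimated 0 to 114 fragments per library and are given no direction here, and no fragments were estimated for partner genes.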
